A study of Mus musculus with 4 samples.

Results

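The genes described here are 10 members of the BCL2 family, which decide whether a lymphocyte lives or enters apoptosis: Bcl2, Bcl2l1, Mcl1, Bcl2a1b and Bcl2a1d on the survival side, Bcl2l11, Bbc3 and Pmaip1 among the death triggers, and the effectors Bax and Bak1. They were chosen by symbol, and each was read from its brightest probe set among those annotated to a single gene. Such a probe set was found for 7 of the 10 members, out of 22180 genes that had one. Of these 7, 6 reached the signal floor in at least 1 array, among 12456 genes that did. The floor is 3.83 on the log2 scale, which is the median signal over every named probe set and array. All 6 were above it in all 4 arrays. Bbc3 stayed below the floor. Bcl2a1b and Bcl2a1d share their probe sets with near-identical copies, and Bax was not analysed here.

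Expression was measured on Affymetrix arrays in B lymphocytes of C57BL/6 mice, sorted from spleens, thymi and lymph nodes by the surface protein B220. The 4 groups were stimulated and non-stimulated cells of the Tilcara strain, described in the labels as a mutant of PKCbeta, and stimulated and non-stimulated cells of wild-type mice. Stimulated cells received 10 ng/mL of PMA, a phorbol ester and activator of protein kinase C enzymes, and 1 µM of the calcium ionophore A23187 for 4 hours. The age and number of mice, the nature of the Tilcara allele, and any culture of the non-stimulated cells were not given. Each group was 1 array, so groups are compared as single arrays, and the comparisons share arrays with one another. Of 8 B cell markers, 7 had a probe set, and those 7 lay above the floor in all 4 arrays. Their summed linear signal was 2473 in stimulated and 10538 in non-stimulated Tilcara cells, and 1861 in stimulated and 10720 in non-stimulated wild-type cells. Prkcb, which encodes PKCbeta, read 7.27 in stimulated and 9.39 in non-stimulated Tilcara cells, and 7.28 in stimulated and 9.42 in non-stimulated wild-type cells; a mutant allele need not alter its transcript, so these levels do not check the genotype labels.

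BCL2 family proteins act at the outer mitochondrial membrane. The survival proteins BCL2, BCL-XL (from Bcl2l1), MCL1 and A1 (from the Bcl2a1 genes) hold back BAX and BAK, which otherwise open the membrane and release cytochrome c, and BH3-only proteins such as BIM (from Bcl2l11), PUMA (Bbc3) and NOXA (Pmaip1) bind the survival proteins and set the effectors free. In mouse B cells, BCL2 and MCL1 maintain resting cells, whereas BCL-XL and A1 are known as products of antigen receptor and NF-kB signalling, which PKCbeta feeds.

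Promoter sequences of a survival gene and a death gene are given first, because Bcl2l1 and Bcl2l11 both had higher signals after stimulation but differed in how their signals compared between genotypes. RefSeq start sites on GRCm38.p6 were used for 9 of the 10 members, 14 sites in all, and Pmaip1 was left out of the search. The 250 bases before each site were searched on both strands for 4 motifs. For Bcl2l1, 1 of 3 start sites had a match to the NF-kB motif, 242 bases before the start; 3.9% of all such windows hold one. For Bcl2l11, 1 of 2 start sites had the forkhead motif GTAAACA, 227 bases before the start, against 3.17% of all windows. Capitals mark these matches in the windows chr2:152830718-152830967 (minus strand) for Bcl2l1 and chr2:128125788-128126037 (plus strand) for Bcl2l11.
Bcl2l1: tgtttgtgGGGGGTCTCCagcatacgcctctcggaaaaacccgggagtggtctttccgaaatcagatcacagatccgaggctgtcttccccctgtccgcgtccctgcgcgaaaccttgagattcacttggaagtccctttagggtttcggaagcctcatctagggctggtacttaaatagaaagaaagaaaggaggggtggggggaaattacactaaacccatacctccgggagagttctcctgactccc
Bcl2l11: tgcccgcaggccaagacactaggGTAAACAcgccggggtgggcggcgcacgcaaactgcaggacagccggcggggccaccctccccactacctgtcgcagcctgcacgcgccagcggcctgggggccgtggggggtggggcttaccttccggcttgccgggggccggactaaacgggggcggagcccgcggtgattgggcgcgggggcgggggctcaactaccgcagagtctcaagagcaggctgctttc
Bbc3 had NF-kB matches, which overlap one another, before 1 of its 3 start sites and a forkhead match before another. No window searched for these genes held TGACGTCA, the cAMP response element, which 1.55% of all windows hold. A match describes letters only.

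The A1 genes are shown for a second reason, that their sequences are hard to tell apart. Each 100-base window below lies upstream of the RefSeq start site. Capitals mark TGANTCA, the AP-1 motif, which reads the same on both strands and is held by 6.75% of all windows of 250 bases. The windows of Bcl2a1a, Bcl2a1b and Bcl2a1d were aligned on this match, so its shared position is by design. The match lies 120, 164 and 114 bases before their start sites. The Bcl2a1c window was placed by its best ungapped match to that of Bcl2a1a within the 250 bases, with 40 of 100 positions identical. The runs they share start at different positions, so these windows are not in register. The windows are chr9:88956778-88956877 (plus strand) for Bcl2a1a, chr9:89199087-89199186 (plus) for Bcl2a1b, chr9:88731887-88731986 (minus) for Bcl2a1d and chr9:114329889-114329988 (plus) for Bcl2a1c.
Bcl2a1a: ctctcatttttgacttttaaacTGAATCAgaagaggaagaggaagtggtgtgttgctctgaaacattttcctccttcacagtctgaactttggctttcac
Bcl2a1b: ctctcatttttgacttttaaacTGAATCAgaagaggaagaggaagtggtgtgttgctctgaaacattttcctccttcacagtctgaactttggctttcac
Bcl2a1d: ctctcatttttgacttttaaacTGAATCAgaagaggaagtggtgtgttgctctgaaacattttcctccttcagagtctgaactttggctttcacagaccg
Bcl2a1c: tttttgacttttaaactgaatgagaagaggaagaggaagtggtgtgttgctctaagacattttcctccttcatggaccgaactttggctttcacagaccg
The windows of Bcl2a1a and Bcl2a1b were identical over all 100 bases, and that of Bcl2a1d shared a run of 43 bases with either. The Bcl2a1c window shared a run of 31 bases with that of Bcl2a1a and held no AP-1 match.

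Stimulation was followed by opposite movements within the survival genes. Over both genotypes Bcl2 and Mcl1 fell while Bcl2l1 rose, and of the death triggers Bcl2l11 rose. The test was limma's additive fit of stimulation and genotype over the 12456 genes, in which each state has 2 samples, 1 per genotype. Its adjusted p (Benjamini-Hochberg) was under 0.05 for 2 members that rose and 2 that fell, out of 6 tested, where 22% of all genes rose and 22.8% fell. The fit leaves 1 residual degree of freedom, which is the difference between the responses of both genotypes. limma draws the variance of each gene towards a value estimated from all genes, with a weight of 3.46 prior degrees of freedom. The SE and p of a gene thus rest largely on other genes and do not measure the spread between mice. Whether an array holds RNA of 1 mouse or of several is not stated. For the genotype effect limma called 0 of 12456 genes, and 667 had an unadjusted p under 0.05.

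Bcl2, the founding survival gene of the family, read 5.49 in stimulated and 8.88 in non-stimulated Tilcara cells, and 6.15 in stimulated and 8.91 in non-stimulated wild-type cells. Both stimulated arrays were far below both non-stimulated ones, and the non-stimulated arrays were nearly equal. The signal was 10.47-fold lower after stimulation in Tilcara cells and 6.76-fold lower in wild-type cells. Bcl2 fell by 3.07 on the log2 scale over both genotypes (limma, SE 0.21, adjusted p = 0.00155). Among all genes, 1.06% had a decrease at least as large in Tilcara cells and 2.40% in wild-type cells. A dimmer Bcl2 probe set, 17216395, read 3.17 in stimulated and 5.80 in non-stimulated Tilcara cells, and 3.22 in stimulated and 5.96 in non-stimulated wild-type cells. It gave a decrease of 2.63 in Tilcara cells and 2.75 in wild-type cells, but both stimulated values lay below the floor, so this probe set cannot compare the size of the decrease between genotypes. The arrays are of sorted cells in bulk, in which fewer cells of a type and less RNA per cell cannot be told apart. Of the 7 B cell markers measured, 6 fell with stimulation as well, where 22.8% of all genes fell. The summed linear signal of 6 natural killer cell markers was 103 in stimulated and 274 in non-stimulated Tilcara cells, and 108 in stimulated and 237 in non-stimulated wild-type cells. Of these 6, 4 lay below the floor in each stimulated array and 1 in each non-stimulated array. T cells also express Bcl2, and the summed linear signal of 8 T cell markers was 81.4 in stimulated and 98.7 in non-stimulated Tilcara cells, and 107 in stimulated and 169 in non-stimulated wild-type cells. Most of these sums are of signals near or below the floor. Below it lay 7 of the 8 in stimulated and 6 in non-stimulated Tilcara cells, and 6 in stimulated and 2 in non-stimulated wild-type cells. The part of these other cells in the Bcl2 values was not tested.

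Mcl1, whose short-lived protein B cells need at most stages, read 9.70 in stimulated and 10.62 in non-stimulated Tilcara cells, and 9.77 in stimulated and 10.49 in non-stimulated wild-type cells. The stimulated arrays again lay below the non-stimulated ones, by less than 2-fold in either genotype. Mcl1 fell by 0.82 over both genotypes (limma, SE 0.15, adjusted p = 0.0144). With all probe sets as features, an alternative added after seeing the data, the adjusted p of limma was 0.0540, and over all 8 alternatives it ranged from 0.000663 to 0.0540. Its other probe set, 17400418, differed by −1.03 in Tilcara cells and −0.62 in wild-type cells.

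Bcl2l1 was the member whose signal differed most between genotypes. It read 5.07 in stimulated and 3.95 in non-stimulated Tilcara cells, and 7.27 in stimulated and 4.40 in non-stimulated wild-type cells. The stimulated wild-type array stood apart from the other 3, and the non-stimulated Tilcara value lay close to the floor, so its fold is approximate. The stimulated signal was 2.18-fold above the non-stimulated one in Tilcara cells and 7.32-fold above it in wild-type cells. Bcl2l1 rose by 1.998 over both genotypes (limma, SE 0.44, adjusted p = 0.0227). This call was lost without the genotype term (limma, adjusted p = 0.0573) and with all probe sets as features (limma, adjusted p = 0.0785), within a range of 0.00920 to 0.0785 over 8 alternatives.

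Between the stimulated arrays, Bcl2l1 was 4.58-fold lower in Tilcara than in wild-type cells, a log2 difference of −2.20. The summed linear signal of 6 macrophage markers in these arrays was 218 in Tilcara and 184 in wild-type cells, and 4 and 5 of the 6 lay below the floor. Cd68 carried most of that sum, with 7.44 in Tilcara and 7.08 in wild-type cells; the other 5 markers summed to 44.2 in Tilcara and 48.6 in wild-type cells. With the T cell markers given above, their part in this difference was not tested. Of the 6 members, 1 was at least 2-fold lower in stimulated Tilcara cells and 0 were at least 2-fold higher, where 0.747% of all genes were lower and 0.955% were higher by that much. A decrease at least as large as that of Bcl2l1 was found in 0.0883% of all genes. Between the non-stimulated arrays Bcl2l1 differed by −0.45, and 0 of the 6 members differed by 2-fold, where 0.658% of all genes were lower and 0.425% higher. In these arrays the 5 macrophage markers other than Cd68 summed to 50.5 in Tilcara and 127 in wild-type cells. The 8 neutrophil markers summed to 63.8 in Tilcara and 771 in wild-type cells. Of these 8, 7 lay below the floor in Tilcara and 6 in wild-type cells. The part of such cells in this difference, and in the responses, was not tested. The Tilcara response of Bcl2l1 minus its wild-type response was −1.75, beyond 2-fold, where 1.65% of all genes were at least that far below 0 and 2.32% above it; 0.273% of all genes had a value as low as that of Bcl2l1. With 1 array per group these differences between genotypes have no replicate check and no test, and over both states limma's genotype effect for Bcl2l1 was −1.32 (SE 0.44, adjusted p = 0.866, unadjusted p = 0.0341).

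**Figure D1:**
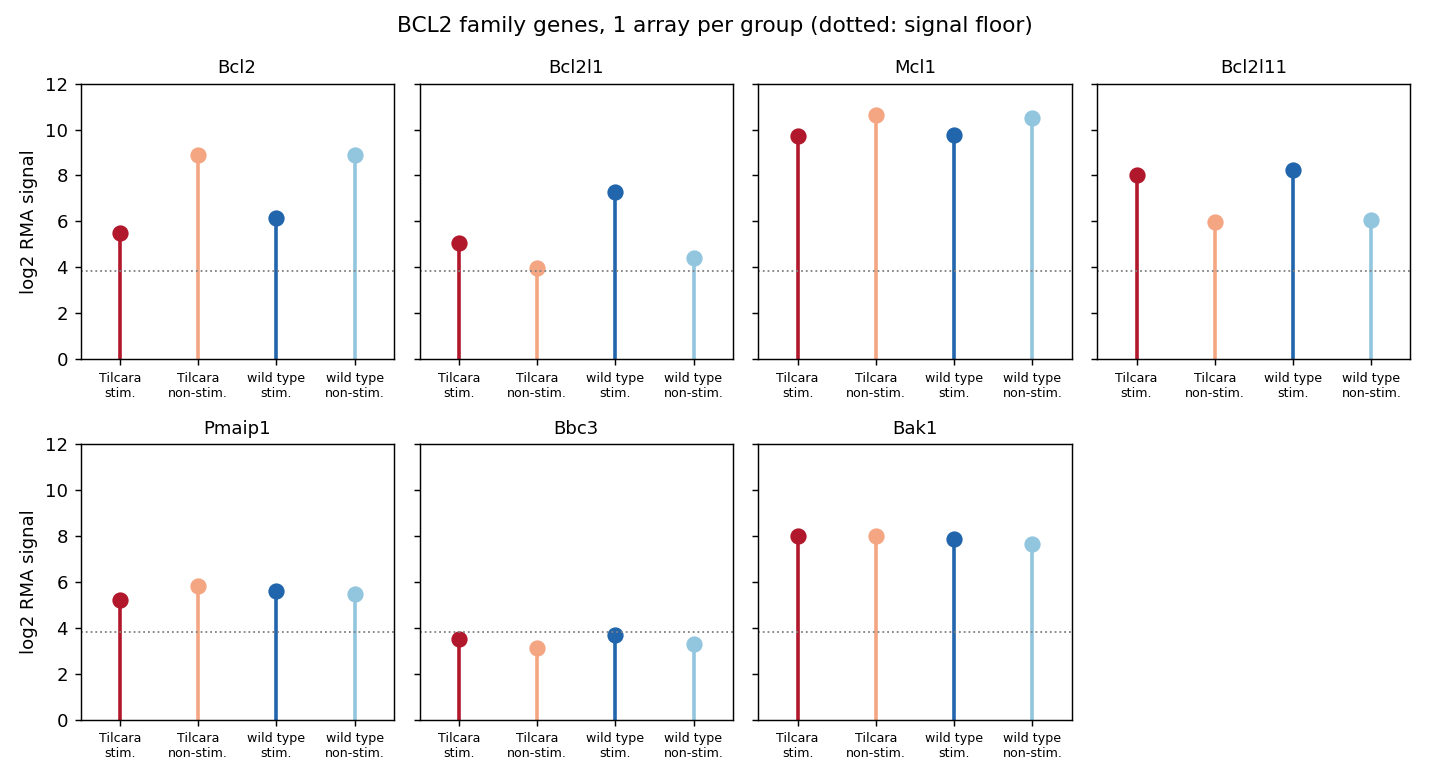
Log2 RMA signal (y axis) of the 7 members with a probe set of their own, in each of the 4 arrays (x axis); each point is 1 array and the dotted line is the signal floor of 3.83. Bcl2 and Mcl1 are lower in both stimulated arrays, Bcl2l11 is higher in both, and Bcl2l1 stands at 7.27 in the stimulated wild-type array alone.

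A1 is a short-lived survival protein of activated lymphocytes. Signals were higher after stimulation on all 4 probe sets annotated to A1 genes, including that of Bcl2a1c, which was not checked for a protein product. Probe set 17529575, annotated to Bcl2a1d, Bcl2a1a and Bcl2a1b together, read 9.74 in stimulated and 8.48 in non-stimulated Tilcara cells, and 10.18 in stimulated and 8.67 in non-stimulated wild-type cells. Probe set 17520171, annotated to Bcl2a1b and Bcl2a1a, read 9.23 in stimulated and 7.96 in non-stimulated Tilcara cells, and 9.70 in stimulated and 8.21 in non-stimulated wild-type cells. Neither value can be given to 1 gene. In the fit over all probe sets both rose, by 1.39 (limma, SE 0.18, adjusted p = 0.0278) and by 1.38 (limma, SE 0.17, adjusted p = 0.0272).

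Bcl2a1a had a probe set annotated to it alone, which read 8.62 in stimulated and 7.31 in non-stimulated Tilcara cells, and 8.88 in stimulated and 6.93 in non-stimulated wild-type cells. It rose by 1.63 in the fit over the genes used (limma, SE 0.21, adjusted p = 0.00542). In the fit over all probe sets, quoted above for the shared ones, its SE was 0.24 (limma, adjusted p = 0.0330). Bcl2a1c rose by 1.37 in the fit over the genes used (limma, SE 0.15, adjusted p = 0.00346). In the fit over all probe sets its SE was 0.16 (limma, adjusted p = 0.0257). It read 4.59 and 4.65 in the stimulated Tilcara and wild-type arrays and lay below the floor in both non-stimulated ones. Across the 4 probe sets the stimulated signal was 2.38-fold to 2.60-fold above the non-stimulated one in Tilcara cells and 2.58-fold to 3.85-fold in wild-type cells. For Bcl2a1c these folds are approximate, since they rest on values below the floor. Of the 4, 3 had the smaller response in Tilcara cells. Those 3 are all annotated to Bcl2a1a, alone or with other A1 genes, so they are not independent. The median difference between responses was 0.0008 over all genes used. A1 is also abundant in neutrophils, and the summed linear signal of 8 neutrophil markers was 46.0 in stimulated and 63.8 in non-stimulated Tilcara cells, and 56.4 in stimulated and 771 in non-stimulated wild-type cells. The neutrophil markers at or above the floor numbered 2 of 8 in the last of these arrays, S100a8 and S100a9, and their part in the A1 values was not tested.

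**Figure D2:**
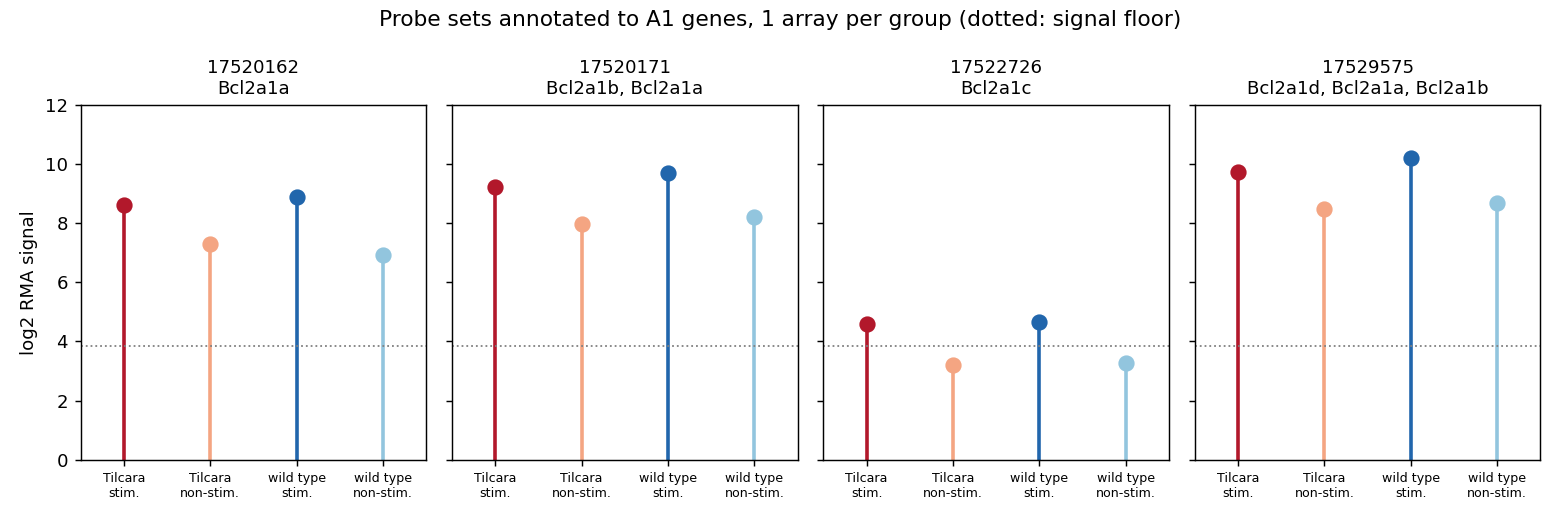
Log2 RMA signal (y axis) of the 4 probe sets annotated to A1 genes in each of the 4 arrays (x axis), with the annotated symbols above each panel and the signal floor dotted. In every panel both stimulated points lie above both non-stimulated points; in panels with several symbols the signal belongs to no single gene.

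Among the death triggers, Bcl2l11 had the clearest response. This gene encodes BIM, the BH3-only protein that removes self-reactive and unsupported lymphocytes. It read 8.01 in stimulated and 5.95 in non-stimulated Tilcara cells, and 8.22 in stimulated and 6.08 in non-stimulated wild-type cells. The stimulated arrays lay well above the non-stimulated ones, with the genotypes close together in either state. The stimulated signal was 4.17-fold above the non-stimulated one in Tilcara cells and 4.40-fold in wild-type cells. Bcl2l11 rose by 2.10 over both genotypes (limma, SE 0.15, adjusted p = 0.00160). Its response differed by −0.08 between genotypes, Tilcara minus wild type, and 41.5% of all genes had a difference as low or lower.

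Pmaip1, which encodes NOXA, an antagonist of MCL1, read 5.21 in stimulated and 5.82 in non-stimulated Tilcara cells, and 5.596 in stimulated and 5.466 in non-stimulated wild-type cells. The values lay within 0.60 of one another, with the highest and the lowest both in Tilcara arrays. Its stimulation effect of −0.24 did not pass (limma, SE 0.23, adjusted p = 0.448). Bbc3, which encodes PUMA, a trigger used by p53, read 3.53 in stimulated and 3.14 in non-stimulated Tilcara cells, and 3.71 in stimulated and 3.28 in non-stimulated wild-type cells, all below the floor, so no fold is given.

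Bak1, the effector that forms pores in the mitochondrial membrane, read 8.02 in stimulated and 8.03 in non-stimulated Tilcara cells, and 7.89 in stimulated and 7.67 in non-stimulated wild-type cells. The range of 0.36 was the smallest of the 6 members that reached the floor. Its stimulation effect of 0.10 did not pass (limma, SE 0.16, adjusted p = 0.636).

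By size alone, 2 of the 6 members were at least 2-fold higher and 1 was at least 2-fold lower after stimulation in Tilcara cells, where 11.9% of all genes were higher and 14.3% lower. In wild-type cells the counts were also 2 higher and 1 lower, where 13.4% of all genes were higher and 15.9% lower. The median log2 difference over the 6 members was −0.31 in Tilcara cells and 0.17 in wild-type cells, beside 0.04 and 0.03 over all genes used. In either genotype the members lay on both sides of the median of all genes.

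**Figure D3:**
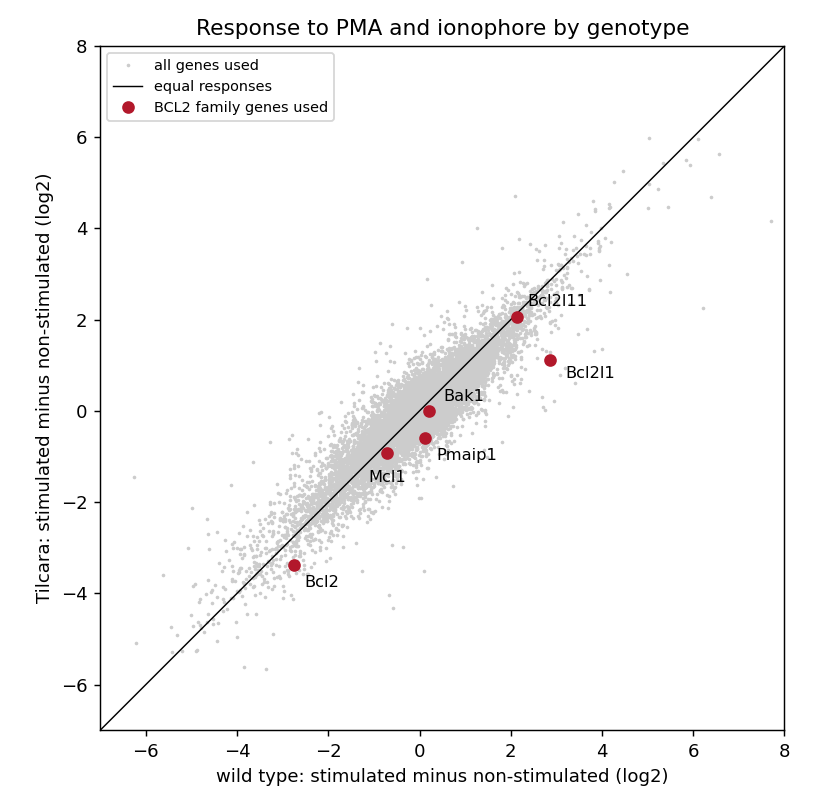
Log2 response to stimulation in Tilcara cells (y axis) against that in wild-type cells (x axis), with a grey point for each of the 12456 genes used, the 6 members in red and a line of equal responses. Bcl2l11 lies near the line, at 2.06 in Tilcara and 2.14 in wild-type cells, and Bcl2l1 lies well below it, at 1.12 in Tilcara and 2.87 in wild-type cells.

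The genes with the most similar profiles over the 4 arrays were found by the Euclidean distance between log2 values after subtracting each gene's mean. Nearest to Bcl2l1 were Slc15a3 (distance 0.50), a lysosomal peptide transporter gene, Tnfaip3 (0.57), which encodes the NF-kB inhibitor A20, and the chemokine gene Ccl22 (0.59). Tnfaip3 read 8.19 in stimulated and 6.87 in non-stimulated Tilcara cells, and 9.70 in stimulated and 6.92 in non-stimulated wild-type cells. Nearest to Bcl2 were Fcgrt (0.16), for the neonatal Fc receptor, Ciita (0.16), the MHC class II transactivator gene, and Bend5 (0.17). Ciita read 5.08 in stimulated and 8.66 in non-stimulated Tilcara cells, and 5.78 in stimulated and 8.66 in non-stimulated wild-type cells. Nearest to Bcl2l11 were the surface receptor gene Slamf7 (0.03), the cytokine signalling inhibitor gene Socs1 (0.05) and the ribosome biogenesis gene Nip7 (0.05). Bcl2l1 had no neighbour as close as those of Bcl2 and Bcl2l11. Fcgrt and Bend5 lay below the floor in the stimulated Tilcara array, and Ccl22 in all arrays but the stimulated wild-type one. Over 4 arrays such likeness is a description only.

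Other BCL2 relatives also divided. Of 16 listed, 10 reached the floor, of which 3 rose, 2 fell and 5 did not pass limma's test, where 22% of all genes rose and 22.8% fell; Bcl2a1c and Bik lay below the floor in some array. Besides Bcl2a1a and Bcl2a1c, Bid, a BH3-only gene whose product links death receptors to mitochondria, rose by 1.05 (limma, SE 0.17, adjusted p = 0.00957). The BH3-only genes Bmf and Bad fell, by 1.17 (limma, SE 0.24, adjusted p = 0.0181) and by 1.13 (limma, SE 0.16, adjusted p = 0.00702). Bmf read 4.63 in stimulated and 5.40 in non-stimulated Tilcara cells, and 4.01 in stimulated and 5.57 in non-stimulated wild-type cells. Bik, another BH3-only gene, did not pass, with responses of 0.91 in Tilcara and −0.08 in wild-type cells.

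Of 24 listed genes of caspases, the apoptosome and inhibitor of apoptosis proteins, 21 reached the floor. Of these 5 rose, 8 fell and 8 did not pass, where 22% of all genes rose and 22.8% fell. The list also held genes that act at death receptors, such as Casp8 and Cflar. Casp8, the initiator caspase of death receptors, fell most. It read 6.07 in stimulated and 8.26 in non-stimulated Tilcara cells, and 5.50 in stimulated and 8.22 in non-stimulated wild-type cells, a limma log2 change of −2.45 (SE 0.19). Apaf1, the scaffold of the apoptosome, fell by 1.76 and Htra2, a mitochondrial protease gene, by 1.25. The caspase inhibitor genes Birc3 and Birc2 fell by 1.53 and 1.43. Cflar, whose product cFLIP blocks caspase-8, rose by 1.42 (limma, SE 0.24, adjusted p = 0.0105), with 8.39 in stimulated and 7.36 in non-stimulated Tilcara cells, and 9.25 in stimulated and 7.43 in non-stimulated wild-type cells. The list therefore held genes that promote and genes that restrain cell death among those that fell.

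**Figure D4:**
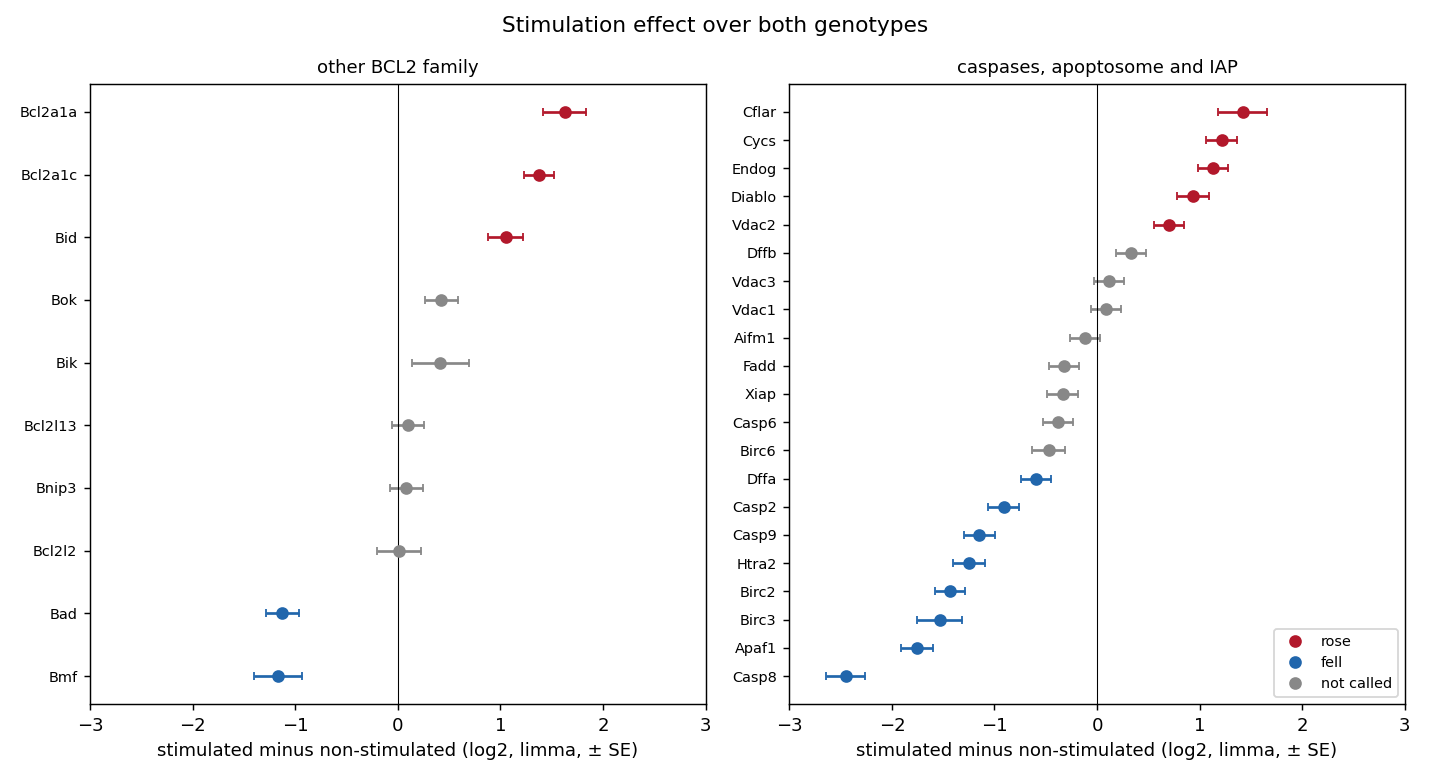
Stimulation effect over both genotypes (x axis, limma log2 change with its SE as the error bar) for the 10 other BCL2 relatives and the 21 genes of caspases, apoptosome and inhibitor of apoptosis proteins that reached the floor, 1 gene per line. Red marks genes that rose, blue genes that fell and grey genes that did not pass; Bcl2a1a is highest on the left and Casp8 lowest on the right.

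Of 19 listed genes of the p53 pathway, which controls Bbc3, Pmaip1 and Bax, 14 reached the floor, and 5 rose, 5 fell and 4 did not pass, against the same 22% and 22.8% of all genes; 3 of the 14 lay below the floor in some array. The stress kinase gene Plk3 rose by 3.41, the metabolic stress gene Sesn2 by 2.57 and the death receptor gene Fas by 1.74. Fas read 6.70 in stimulated and 4.51 in non-stimulated Tilcara cells, and 6.05 in stimulated and 4.76 in non-stimulated wild-type cells. Sesn1, a relative of Sesn2, fell by 3.47, Plk2 by 2.003 and the antiproliferative gene Btg2 by 1.95. Sesn2 lay below the floor in both non-stimulated arrays.

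Among 15 listed transcription factors and regulators that act on BCL2 family genes, 14 reached the floor, and 5 rose, 3 fell and 6 did not pass, beside 22% and 22.8% of all genes; 2 of the 14, Foxo3 and Trib3, lay below the floor in some array. The forkhead factor genes Foxo3 and Foxo1, known activators of Bcl2l11, fell by 1.498 (limma, SE 0.18, adjusted p = 0.00438) and by 1.40 (limma, SE 0.17, adjusted p = 0.00459). Foxo3 was below the floor in both stimulated arrays, at 3.69 in Tilcara and 3.60 in wild-type cells, so it was used only because of its non-stimulated values and its fall is approximate. Foxo1 read 6.92 in stimulated and 8.15 in non-stimulated Tilcara cells, and 6.55 in stimulated and 8.13 in non-stimulated wild-type cells. The part of either factor in the Bcl2l11 values was not tested. Myc, the growth factor-induced transcription factor gene, rose by 1.98, the stress factor gene Ddit3 by 1.15 and the pseudokinase gene Trib3 by 1.75. Bach2, a repressor of B cell differentiation, did not pass, with responses of 0.38 in Tilcara and −0.70 in wild-type cells. Of 8 genes for the turnover or binding of BIM and MCL1, 6 reached the floor, and 2 rose and 1 fell, beside 22% and 22.8% of all genes. Btrc, for a subunit of a ubiquitin ligase, fell by 1.75, and Fbxw7, which marks MCL1 for degradation, rose by 0.68.

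Of 7 listed genes of receptors that bear on lymphocyte survival, in either direction, and of the ligand BAFF, 6 reached the floor. Of these 2 rose, Il7r and the BAFF gene Tnfsf13b, and 4 fell, beside 22% and 22.8% of all genes. Both that rose lay below the floor in the non-stimulated Tilcara array. Tnfsf13b also lay below it in the non-stimulated wild-type array, at 3.35, and in the stimulated Tilcara array, at 3.70. It was used only because of its stimulated wild-type value of 4.17, so its rise is approximate. Il4ra, for the interleukin-4 receptor, fell by 2.33, Tnfrsf13b, for TACI, by 1.07 and Tnfrsf13c, for the BAFF receptor, by 0.74. Il7r, for the interleukin-7 receptor, rose by 3.45. Cd40, for the receptor of T cell help, fell by 1.62 (limma, SE 0.32, adjusted p = 0.0172). It read 6.02 in stimulated and 8.24 in non-stimulated Tilcara cells, and 7.24 in stimulated and 8.26 in non-stimulated wild-type cells. Its stimulated signal was thus lower in Tilcara than in wild-type cells, by 1.23 on the log2 scale, and 0.417% of all genes were as low or lower. No other gene of this list differed by 2-fold between the stimulated arrays, where 0.747% of all genes were lower and 0.955% higher. With 1 array per group this difference was not tested.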

How the data were processed

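The authors deposited log2 values for 41345 probe sets in 4 arrays. They used RMA (background correction, quantile normalization and a log2 summary of probes), per the submitters' processing notes; its version is not given. Quantile normalization hides changes in total RNA per cell. Array medians lay between 3.73 and 3.79. With the build not given in the sources used, probe sets and genes have no positions here; only RefSeq promoter windows do.

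By the platform annotation, 23521 probe sets carried 1 symbol, 1814 several and 16010 none. The probe set with the highest mean stood for its gene, and genes whose highest value reached 3.83 were used. The 5 differences between arrays had no test; genes were counted at 2-fold. limma 3.58.1 (R 4.3.3) fitted stimulation and genotype together, with Benjamini-Hochberg adjustment over 12456 genes; it was tested on simulated data. Promoters came from RefSeq (GRCm38.p6).

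Text names every member, up to 6 genes per list with the largest difference, and the 3 nearest profiles of members with a range of at least 1. The members and the 11 lists beside them were chosen with earlier results of these data known. Alternatives were median centring, cyclic loess, the mean over probe sets, other filters, a variance trend, single-factor fits, 1.5-fold and all probe sets.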

Additional observations from a re-analysis of the deposited data

Results flagged for a closer look

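For Pmaip1 and Bak1 the responses had opposite signs in the genotypes, though Bak1 hardly changed in Tilcara cells. For Pmaip1 the stimulated minus non-stimulated log2 difference was −0.60 in Tilcara cells and 0.13 in wild-type cells, which differ by −0.73. For Bak1 it was −0.01 in Tilcara cells and 0.22 in wild-type cells, which differ by −0.23. Among all genes, 4.79% had a difference as low as that of Pmaip1 and 26.4% as low as that of Bak1. The share of all genes with responses of opposite sign was not counted, so the pattern cannot be called particular to these members. With 1 array per group neither difference was tested, and every one of these responses is under 2-fold.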

How the results depend on the processing

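Of 276 values of single members under alternatives, 267 kept their direction and their side of the threshold, 4 kept only their direction and 5 changed sign. The stimulation calls of Bcl2 and Bcl2l11 held under all 8 alternatives; those of Bcl2l1 and Mcl1 did not, as given above, and with all probe sets as features 2 members were called in place of 4, with more features to adjust over. Mcl1 differed by −1.12 in Tilcara cells after cyclic loess, past 2-fold. The stimulated difference of Bcl2l1 between genotypes ranged from −2.22 to −2.19 over 6 alternatives. The sign changes were of values near 0: the non-stimulated difference of Bcl2 between genotypes was 0.025 after median centring, the genotype effect of Pmaip1 was 0.016 after median centring, that of Mcl1 −0.034 after cyclic loess and −0.033 with the mean over probe sets, and the stimulation effect of Bak1 −0.10 after cyclic loess; no tested one of these passed. With the lowest value required to reach the floor, fewer genes were tested, and those at least 2-fold different numbered 118 between the stimulated arrays, 44 between the non-stimulated arrays and 242 for the difference between responses, against 212, 135 and 495. At 1.5-fold, genes numbered 5600 for the Tilcara response, 6034 for the wild-type response, 1039 and 835 between genotypes with and without stimulation, and 2094 for the difference between responses; members numbered 5 for the Tilcara response, 2 between the stimulated arrays and 3 for the difference between responses. No paired analysis was possible because each group is 1 array; the genotype term itself compares the states within genotype, and the fit without it is the one that gave Bcl2l1 an adjusted p of 0.0573 in limma. Leaving out an array would leave the fit no residual degree of freedom. Signals near the floor, as for Bcl2l1 without stimulation and Bbc3, limit any fold.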
